A study of Homo sapiens with 12 samples.

Results

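The 10 genes described here take iron into the cell, store it, release it and export it: TFRC, STEAP3, SLC11A2, FTH1, FTL, NCOA4, HMOX1, IREB2, ACO1 and SLC40A1. They were selected by gene name, and all 10 were found among the 58721 genes of the deposited tables. RNA-seq of poly(A) RNA was performed on 12 libraries of 2 human pancreatic cancer cell lines, Pa-Tu-8902 (Tu8902 in the labels) and MIA PaCa-2 (MiaPaCa2 in the labels), both carrying a short hairpin RNA against GOT1 (shGOT1) that doxycycline (dox) induces. GOT1 is the cytosolic aspartate aminotransferase. In each line 3 libraries came from cells without dox and 3 from cells given dox for 5 days. The labels give the dose as 1 µM/mL and the study's methods as 1 µg/mL. The untreated cells carry the hairpin too, so dox and the loss of GOT1 cannot be told apart, and which of the study's GOT1 hairpins was sequenced is not stated. No source used here says that the 3 libraries of a group were separate cultures, so p-values measure the spread between these libraries only. These are bulk libraries, in which fewer expressing cells and less RNA per cell cannot be told apart.

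Cells take up iron bound to transferrin through the transferrin receptor, reduce it in the endosome and pass it to the cytosol through a divalent metal transporter. Surplus iron is stored in ferritin, a shell of heavy and light chains that the receptor NCOA4 can deliver to the lysosome for breakdown, while heme oxygenase frees iron from heme and ferroportin exports it. The iron regulatory proteins bind a short hairpin in target mRNAs, the iron-responsive element (IRE), when iron is scarce: in a 5′ UTR the element blocks translation, as in ferritin and ferroportin mRNA, and in the 3′ UTR of the transferrin receptor it protects the mRNA from decay.

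The IREs are shown first because ferritin, ferroportin and transferrin receptor mRNA are known targets of this control. The strict pattern used here does not find every known element: SLC11A2, which has transcripts with an IRE in the 3′ UTR, held no match. The pattern was a bulged C, 5 paired bases, the loop CAGTGN with any last base but G, and 5 pairing bases. Whole protein-coding transcripts (GENCODE release 44, GRCh38) were searched, coding sequence included. Matches were found in 4 of the 10 members, all in UTRs. Anywhere in the transcript, 226 of 19702 protein-coding genes (1.15%) held a match. Capitals mark the loop.
FTH1, 5′ UTR, chr11:61967574-61967602, minus strand: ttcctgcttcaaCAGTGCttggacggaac
FTL, 5′ UTR, chr19:48965335-48965363, plus strand: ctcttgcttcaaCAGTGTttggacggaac
SLC40A1, 5′ UTR, chr2:189580661-189580689, minus strand: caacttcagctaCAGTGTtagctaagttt
TFRC, 3′ UTR, chr3:196050463-196050491, minus strand: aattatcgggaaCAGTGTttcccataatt
TFRC, 3′ UTR, chr3:196050510-196050538, minus strand: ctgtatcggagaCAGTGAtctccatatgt
TFRC, 3′ UTR, chr3:196050575-196050603, minus strand: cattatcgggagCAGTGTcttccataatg
TFRC, 3′ UTR, chr3:196050979-196051007, minus strand: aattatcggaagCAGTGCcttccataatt
The elements of the ferritin genes were identical at 26 of 29 bases, with FTH1 to FTL substitutions T1C, C4T and C18T, counted from the first base shown. The transferrin receptor carried 4 matches, and the other 6 members carried none. A match is a description of the letters and no measure of binding.

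Levels are given as TPM, the authors' estimate of transcript abundance per length and depth, in the order replicate 1 to 3. A gene is said to have risen or fallen where edgeR's quasi-likelihood test on the counts gave a p below 0.01 after Benjamini-Hochberg adjustment and the change was at least 1.5-fold. Total counts per library were 26226537 to 43406137, at which a count of 0 allows up to 3 counts, for counting error only. GOT1 itself was 81.0 ± 2.59 TPM (SD, n = 3) without and 3.83 ± 0.62 with dox in Pa-Tu-8902. The values of MIA PaCa-2 were 41.9 ± 2.68 and 1.83 ± 0.14. GOT1 fell by 4.64 and 4.76 on the log2 scale. Of 6 epithelial markers all 6 were present in Pa-Tu-8902, where the summed level was 8186 to 9080 TPM without and 6954 to 7952 TPM with dox. For MIA PaCa-2 the sum was 2823 to 3092 TPM and 2918 to 3155 TPM, with CDH1 (E-cadherin) at 0 to 1 counts in the untreated libraries. Leukocyte markers summed to at most 13.6 TPM in any library, with PTPRC at no more than 3 counts, and the sums of endothelial, erythroid and acinar markers stayed at or below 2.09 TPM. Fibroblast markers summed to 3.82 to 6.38 TPM without and 18.04 to 21.7 TPM with dox in Pa-Tu-8902. The other line had 192 to 248 TPM and 340 to 398 TPM, with COL3A1, DCN and LUM at the counting floor in every group. The part of these markers in the results was not tested.

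One library stood apart before any comparison. MIA PaCa-2 untreated replicate 2 differed from the other untreated replicates of its line more than these did from each other: the chi-square of the counts, divided by its degrees of freedom, was 25.5 and 27.3 with it and 6.40 between the others. Pa-Tu-8902 dox replicates 1 and 2 differed by 20.6. The lowest untreated MIA PaCa-2 value of TFRC, STEAP3, SLC11A2, NCOA4, HMOX1, IREB2 and ACO1, and the highest of FTH1, came from replicate 2. Results that rest on it are given with and without it.

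**Figure D1:**
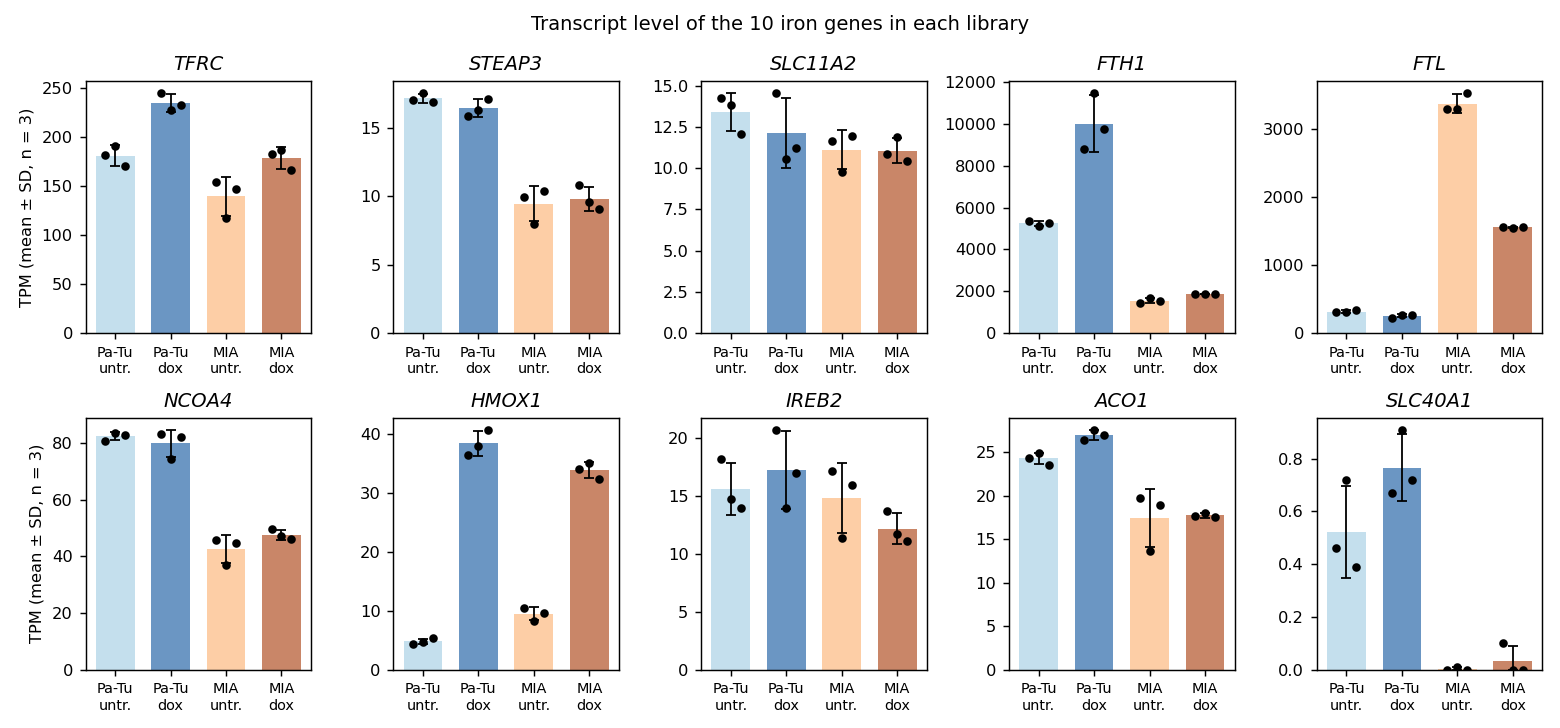
Transcript level in TPM (y axes, from 0) of each of the 10 iron genes in the 4 groups; bars are means, error bars SD (n = 3) and points the libraries. The ferritin genes FTH1 and FTL stand far above the others and are ranked in opposite order in the lines without dox, and HMOX1 is higher with dox in both.

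On the TPM scale the order of the members without dox was much alike in the lines below the ferritin pair. In untreated Pa-Tu-8902 FTH1 (mean 5260 TPM) led, followed by FTL, TFRC, NCOA4, ACO1, STEAP3, IREB2, SLC11A2, HMOX1 and SLC40A1. The libraries of STEAP3 and IREB2, and of IREB2 and SLC11A2, overlapped, and the other neighbours in that order did not. In untreated MIA PaCa-2 FTL (3376 TPM) stood above FTH1 (1557 TPM), then TFRC, NCOA4, ACO1, IREB2, SLC11A2, HMOX1, STEAP3 and SLC40A1. There each neighbouring pair from ACO1 to STEAP3 overlapped.

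With dox, HMOX1 and FTH1 rose in Pa-Tu-8902 and no member fell, while HMOX1 rose and FTL fell in MIA PaCa-2. That is 2 of 10 members in Pa-Tu-8902, both higher, where 16.3% of the 14949 genes tested passed both thresholds (9.22% higher and 7.12% lower). MIA PaCa-2 had 1 higher and 1 lower of the 9 members tested, where 12% of 14589 did (4.36% higher and 7.64% lower). SLC40A1 had too few counts to be tested in MIA PaCa-2. The members' median log2 fold changes were -0.0063 for Pa-Tu-8902 and -0.0044 for MIA PaCa-2, beside 0.0014 and -0.0089 over all genes tested. By adjusted p alone 5 members passed in Pa-Tu-8902 (38.1% of all genes) and 4 in the other line (27.2%). The dox and untreated TPM values did not overlap for 5 members of each line, against 52.4% and 43.8% of all genes tested. Counts this small are not set apart from the shares of all genes. With no member fallen in Pa-Tu-8902 by edgeR, 4 were lower at an unadjusted p below 0.05 (28.4% of all genes), and DESeq2 called 0 lower. A test of the difference between the responses called FTL and HMOX1, 2 of 10 members, both with the higher value in Pa-Tu-8902, where 10.4% of 16544 genes were called (6.56% higher and 3.86% lower).

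**Figure D2:**
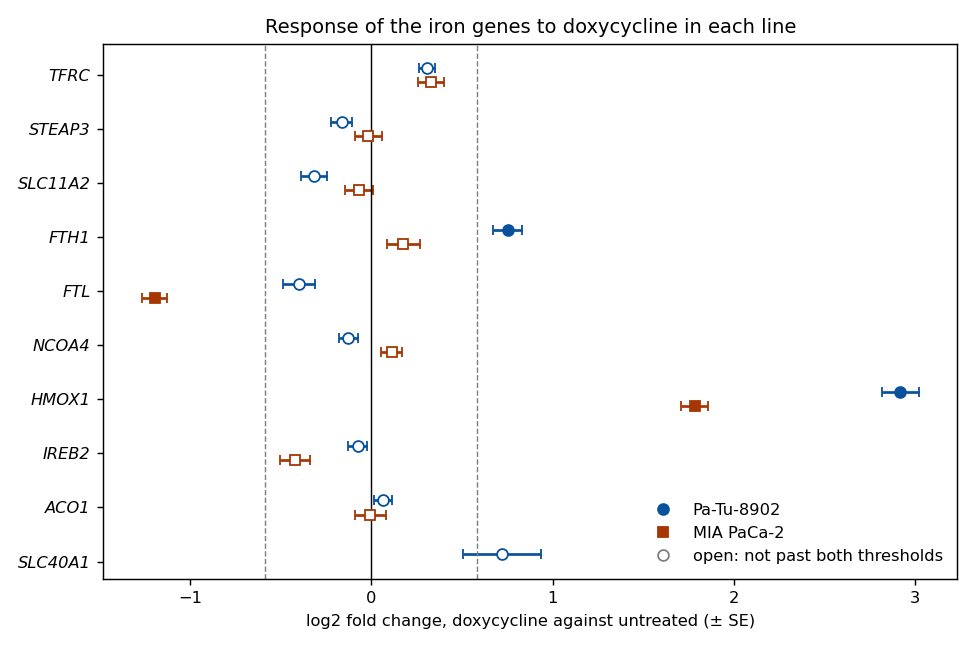
Log2 fold change with dox against untreated (x axis; error bars SE) of each iron gene in Pa-Tu-8902 (circles) and MIA PaCa-2 (squares); filled symbols passed the adjusted p of 0.01 and the 1.5-fold limit, which the dashed lines mark. HMOX1 is filled in both lines, FTH1 in Pa-Tu-8902 and FTL in MIA PaCa-2; SLC40A1 was not tested in MIA PaCa-2.

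The uptake genes shifted by less than 1.5-fold. TFRC, the transferrin receptor, was 182, 191 and 170 TPM without and 245, 228 and 233 TPM with dox in Pa-Tu-8902. MIA PaCa-2 had 154, 117 and 147 TPM without and 183, 187 and 166 TPM with dox. All dox libraries lay above all untreated ones in both lines. The log2 fold change was 0.31 (SE 0.05, adjusted p = 2.29e-04) in Pa-Tu-8902 and 0.33 (SE 0.07, adjusted p = 0.00322) for the other line, past the adjusted p and short of the fold limit in each. Without MIA PaCa-2 untreated replicate 2 the second value was 0.27 (adjusted p = 3.66e-04, and 9.65e-05 to 0.0265 over the alternatives). The difference between the lines was -0.02 on the log2 scale (SE 0.09, adjusted p = 0.927).

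STEAP3 is the endosomal ferrireductase that reduces iron released from transferrin. It was 17.04, 17.55 and 16.93 TPM without and 15.9, 16.28 and 17.15 TPM with dox in Pa-Tu-8902, where the groups overlapped. The log2 fold change of -0.16 (SE 0.06) did not pass the test (adjusted p = 0.0402). In MIA PaCa-2 it was 9.94, 8.0 and 10.41 TPM without and 10.81, 9.55 and 9.07 TPM with dox, again overlapping, with a log2 fold change of -0.02 (SE 0.08, adjusted p = 0.884). SLC11A2 encodes the divalent metal transporter. Its libraries were at 14.25, 13.85 and 12.07 TPM without and 14.53, 10.58 and 11.22 TPM with dox in Pa-Tu-8902. Its log2 fold change there, -0.32 (SE 0.07, adjusted p = 0.00404), passed the adjusted p and not the fold limit, although the TPM values overlapped. At 11.66, 9.74 and 11.94 TPM without and 10.84, 11.91 and 10.43 TPM with dox, in MIA PaCa-2 the change was -0.07 (SE 0.08, adjusted p = 0.504). Neither gene's response differed between the lines at the threshold, with a difference of -0.15 (SE 0.10) for STEAP3 and -0.25 (SE 0.11) for SLC11A2.

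The storage genes differed between the lines. FTH1, the ferritin heavy chain, which oxidizes ferrous iron for storage, was 5368, 5144 and 5269 TPM without and 8799.7, 11492 and 9768 TPM with dox in Pa-Tu-8902. Every dox library was far above every untreated one, and FTH1 rose 1.68-fold in the test on counts (log2 fold change 0.75, SE 0.08, adjusted p = 2.51e-05). It took 0.303% to 0.320% of all counts without and 0.496% to 0.600% with dox. In MIA PaCa-2 FTH1 was 1436, 1694 and 1539 TPM without and 1867, 1881 and 1861 TPM with dox. The groups did not overlap there either, and the log2 fold change was 0.18 (SE 0.09, adjusted p = 0.152). Without untreated replicate 2, which was the highest of its group, it was 0.30 (SE 0.05, adjusted p = 3.40e-05), still short of the fold limit. Over all alternatives the adjusted p was 3.40e-05 to 0.451. The difference between the responses was 0.58 on the log2 scale (SE 0.14, adjusted p = 0.00479), just under the fold limit, and it passed that limit in 10 of 18 alternatives, DESeq2 among them (0.59, adjusted p = 7.12e-05; 3.84e-07 to 0.0124 over the alternatives).

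FTL, the ferritin light chain, which supports the iron core, was 3295, 3301 and 3533 TPM without and 1562, 1546 and 1554 TPM with dox in MIA PaCa-2. The dox libraries differed by little among themselves and were all below the untreated ones. FTL fell by 1.19 on the log2 scale (SE 0.07, adjusted p = 3.43e-07). In Pa-Tu-8902 FTL was 308, 305 and 337 TPM without and 226, 269 and 262 TPM with dox. The groups did not overlap, and the log2 fold change of -0.40 (SE 0.09, adjusted p = 0.00306) passed the adjusted p and not the fold limit. The difference between the lines passed both thresholds (log2 0.80, SE 0.12, adjusted p = 1.19e-04).

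The ratio of FTH1 to FTL TPM was higher with dox in both lines. In Pa-Tu-8902 it was 17.4, 16.9 and 15.6 without and 39.0, 42.7 and 37.2 with dox, 2.38-fold higher. The MIA PaCa-2 ratio was 0.436, 0.513 and 0.436 without and 1.20, 1.22 and 1.20 with dox, 2.61-fold higher, so that the heavy chain mRNA passed from below to above the light chain mRNA. In each line all dox libraries exceeded all untreated ones (p = 0.1 by a two-sided exact permutation test, which 3 libraries against 3 cannot go below). The sum of the pair did not follow this course. It was 5577 ± 116 TPM without and 10272 ± 1384 TPM with dox in Pa-Tu-8902 (SD, n = 3). For MIA PaCa-2 it was 4933 ± 179 and 3424 ± 7.75 TPM, a description with no test. Pseudogene rows hold few of the reads: the 25 FTH1 pseudogenes together had 0.112% to 0.222% of the counts of FTH1, and the 16 of FTL at most 0.252% of those of FTL. As RSEM divides reads between near-identical copies, FTH1 counts were not whole numbers in any library. BEST1, which overlaps FTH1 on the opposite strand, had 0.034% of its counts.

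**Figure D3:**
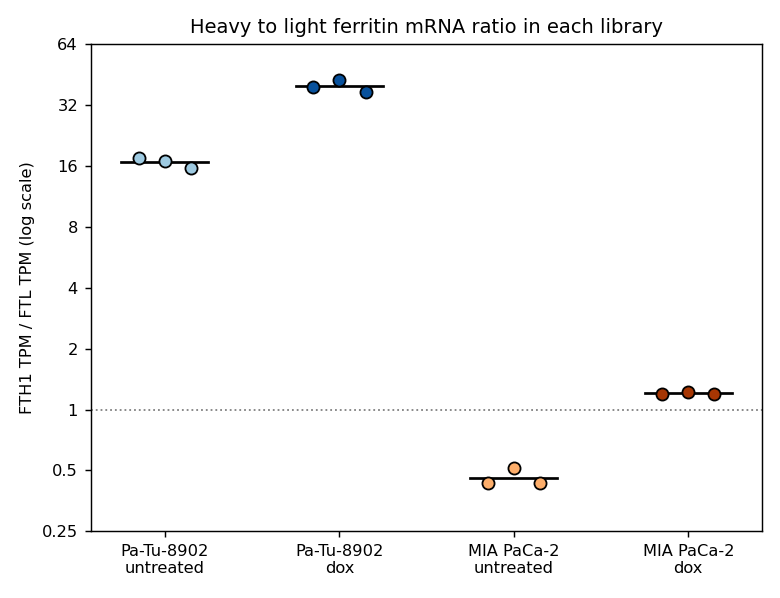
Ratio of FTH1 to FTL TPM in each library (y axis, log scale; points are libraries and bars the mean of 3). The ratio is above 15 in every Pa-Tu-8902 library and below 1 in the 3 untreated MIA PaCa-2 libraries only, and the dox libraries lie above the untreated ones in both lines.

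The FTH1 signal came from different annotated transcripts in the lines. FTH1-201 made up 57.0%, 61.6% and 64.8% of the gene's TPM in untreated Pa-Tu-8902, and 31.9%, 24.2% and 30.2% in untreated MIA PaCa-2. FTH1-212 has the same start codon, stop codon and IRE but lacks part of the 5′ UTR and has a shorter 3′ UTR. It made up 26.1%, 23.7% and 22.0% in untreated Pa-Tu-8902 and 66.0%, 74.2% and 67.5% in untreated MIA PaCa-2. The lines did not overlap for either transcript, with or without dox. With dox the shares overlapped those without dox within each line for both transcripts. FTH1-206, which ends in another last exon, was at 383 TPM in the middle untreated library of Pa-Tu-8902 (344 to 473 TPM) and at 873, 1713 and 1137 TPM with dox. It was at no more than 5.94 TPM in any MIA PaCa-2 library. Its share of FTH1 was 7.60% ± 1.15 without and 12.2% ± 2.53 with dox in Pa-Tu-8902 (SD, n = 3), and 2.87% and 4.99% as a share of expected counts, which are not divided by length. These are RSEM's estimates for overlapping transcripts, described with no test. FTL-201 held 100% of FTL in every library, and HMOX1-201 held 95.65% to 100% of HMOX1.

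**Figure D4:**
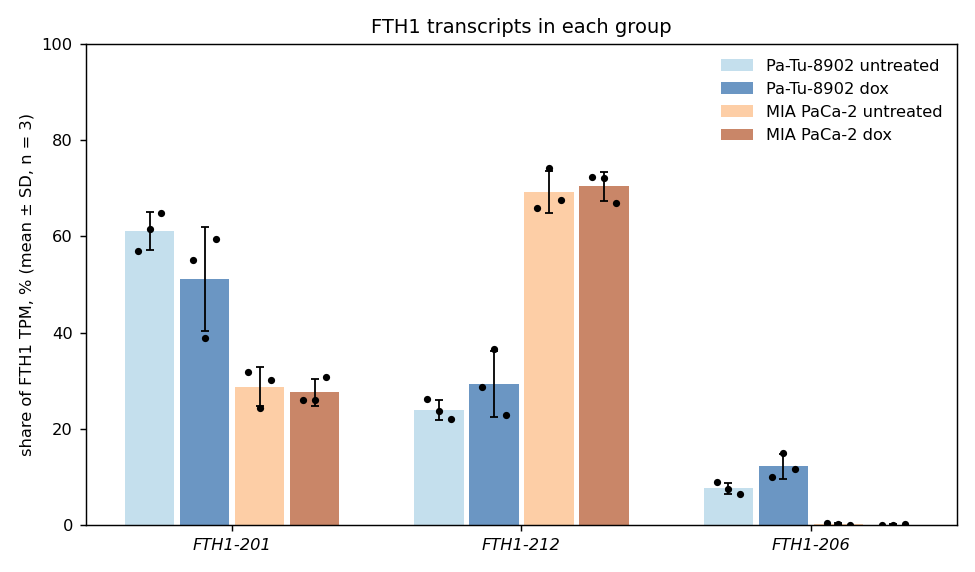
Share of FTH1 TPM, in percent (y axis, from 0), of the FTH1 transcripts that reached 10% in a group; bars are means, error bars SD (n = 3) and points the libraries. FTH1-201 leads in Pa-Tu-8902 and FTH1-212 in MIA PaCa-2, and FTH1-206 is present in Pa-Tu-8902 and near 0 in MIA PaCa-2.

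Of the release genes, HMOX1 had the largest change of any member in each line. It encodes the inducible heme oxygenase, which opens the heme ring and frees its iron. In Pa-Tu-8902 it was 4.38, 4.67 and 5.33 TPM without and 36.45, 37.99 and 40.71 TPM with dox, and MIA PaCa-2 had 10.51, 8.29 and 9.70 TPM without and 34.04, 35.06 and 32.43 TPM with dox. The lines differed without dox and came near each other with it. HMOX1 rose 7.56-fold in Pa-Tu-8902 (log2 fold change 2.92, SE 0.10, adjusted p = 1.24e-08) and 3.44-fold in the other line (1.78, SE 0.07, adjusted p = 2.92e-08). The rise was larger in Pa-Tu-8902 by 1.14 on the log2 scale (SE 0.13, adjusted p = 4.68e-06). The study reports no change of HMOX1 expression in Pa-Tu-8902 and a rise in MIA PaCa-2 after GOT1 knockdown. Its main text does not name the assay there. Why the Pa-Tu-8902 libraries differ from that report was not tested. Of the other members the study reports no significant change of SLC40A1 expression. For protein it reports little effect on NCOA4 and the transferrin receptor, lower IRP2 (the product of IREB2) and higher ferritin. Protein was not measured in these libraries.

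NCOA4, the receptor that carries ferritin to the lysosome, did not pass the test in either line. It was 80.85, 83.7 and 82.71 TPM without and 83.04, 74.27 and 82.25 TPM with dox in Pa-Tu-8902. MIA PaCa-2 had 45.95, 36.94 and 44.9 TPM without and 49.53, 47.15 and 46.27 TPM with dox. The groups overlapped in the first line and not in the second, where the lowest value was that of untreated replicate 2. The log2 fold changes were -0.13 (SE 0.05, adjusted p = 0.0637) and 0.11 (SE 0.06, adjusted p = 0.148), and their difference of -0.24 (SE 0.08) had an adjusted p of 0.0370. NCOA4-204 held 72.5% to 82.2% of the gene's TPM in every library and NCOA4-207, which begins with another non-coding exon, most of the rest.

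The iron regulatory proteins differed in their values. IREB2 encodes the one that is degraded when iron is plentiful. It was 17.14, 11.42 and 15.96 TPM without and 13.69, 11.71 and 11.14 TPM with dox in MIA PaCa-2, overlapping through untreated replicate 2. Its log2 fold change was -0.42 (SE 0.08, adjusted p = 0.00181), and -0.51 without that replicate (adjusted p = 3.97e-07, and up to 0.0358 under other alternatives), in both cases short of the fold limit. In Pa-Tu-8902 IREB2 was 18.19, 14.73 and 13.96 TPM without and 20.73, 13.99 and 17.01 TPM with dox, and the test on counts gave -0.08 (SE 0.05, adjusted p = 0.254). The TPM mean was higher and the fitted count lower with dox there. IREB2-204, a minor transcript, was listed at up to 25.1% of the gene's TPM in single dox libraries and at 0.146% of its counts on average in that group. The difference between the responses was 0.35 (SE 0.10, adjusted p = 0.0167), and 0.45 without MIA PaCa-2 untreated replicate 2 (adjusted p = 3.21e-04, and up to 0.130 under other alternatives).

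ACO1, cytosolic aconitase, acts as the other iron regulatory protein when it lacks its iron-sulfur cluster. It was 24.35, 24.88 and 23.54 TPM without and 26.34, 27.55 and 26.91 TPM with dox in Pa-Tu-8902. The groups did not overlap in TPM, yet the log2 fold change was 0.06 (SE 0.05, adjusted p = 0.326). In MIA PaCa-2 it was 19.68, 13.58 and 18.92 TPM without and 17.63, 17.99 and 17.51 TPM with dox, with overlapping groups and a change of -0.0044 (SE 0.08, adjusted p = 0.970). SLC40A1 encodes ferroportin, the iron exporter. It was counted 31, 37 and 24 times without and 52, 74 and 53 times with dox in Pa-Tu-8902 (0.46, 0.72 and 0.39 TPM, and 0.67, 0.91 and 0.72 TPM). Its log2 fold change of 0.72 (SE 0.21) exceeded the fold limit but not the adjusted p (0.0167). In MIA PaCa-2 it had 1 count over the 3 untreated libraries and 1 over the 3 dox libraries, under the limit that a count of 0 allows, so no response was detectable at this depth.

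The untreated lines differed in 6 of 10 members, 4 higher and 2 lower in Pa-Tu-8902, and 58.1% of the 15608 genes tested passed the same thresholds (28.9% higher and 29.3% lower). SLC40A1, among the 4 higher, met the count minimum only through its Pa-Tu-8902 libraries, so it could only be called higher. It is also among the members counted below by adjusted p and by overlap. By adjusted p alone 8 members passed, against 72.9% of all genes. The median log2 fold change of the members, Pa-Tu-8902 against MIA PaCa-2, was 0.40, beside -0.03 over all genes. In 9 members the TPM values of the lines did not overlap, against 76.5% of all genes. Both ferritin genes differed by more than 3-fold. FTL was lower in Pa-Tu-8902 by a log2 fold change of -3.46 (SE 0.09, adjusted p = 5.30e-13), an 11.0-fold difference, and FTH1 was 3.79-fold higher (1.92, SE 0.10, adjusted p = 6.72e-10). The ratio of FTH1 to FTL was 36.1-fold higher in Pa-Tu-8902 (p = 0.1, again the least the exact test can give), while the sum of both was 5449 to 5676 TPM in Pa-Tu-8902 and 4731 to 5072 TPM in the other line.

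NCOA4 was 1.89-fold higher in untreated Pa-Tu-8902 (log2 0.92, SE 0.07, adjusted p = 3.36e-08) and STEAP3 was 1.72-fold higher (0.78, SE 0.08, adjusted p = 4.65e-07). HMOX1 was 2.02-fold lower (-1.02, SE 0.12, adjusted p = 5.15e-06). SLC40A1 had 92 counts over the untreated Pa-Tu-8902 libraries and 1 over those of MIA PaCa-2, a ratio of 88.1 at equal depth with an exact 95% counting interval of 15.4 to 3519. TFRC (0.35, SE 0.08) and ACO1 (0.46, SE 0.09) passed the adjusted p and not the fold limit. SLC11A2 (0.18, SE 0.09, adjusted p = 0.0800) and IREB2 (-0.08, SE 0.09, adjusted p = 0.428) did not pass. Without MIA PaCa-2 untreated replicate 2 the same 6 genes passed both thresholds, and IREB2 was at -0.21 (adjusted p = 0.00800, and up to 0.960 under other alternatives).

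**Figure D5:**
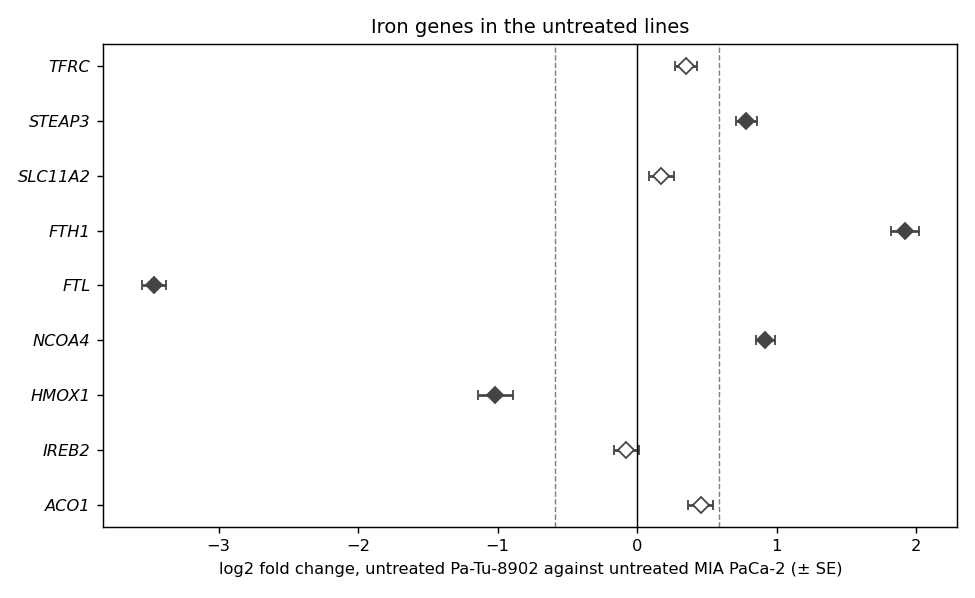
Log2 fold change of untreated Pa-Tu-8902 against untreated MIA PaCa-2 (x axis; error bars SE) for 9 iron genes; filled symbols passed the adjusted p of 0.01 and the 1.5-fold limit, which the dashed lines mark. FTL lies at -3.46 and FTH1 at 1.92; SLC40A1 is left out because MIA PaCa-2 had 1 count.

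Around these members stood 97 other genes of iron uptake, storage chaperones, heme, iron-sulfur cluster assembly and their control, in 11 lists. With dox, 10 of the 83 tested were called in Pa-Tu-8902, 5 higher and 5 lower. In MIA PaCa-2 9 of 79 were, 2 higher and 7 lower. At 12% and 11.4% these shares were no higher than those of all genes. The median log2 fold change was -0.11 and -0.08, beside 0.0014 and -0.0089 over all genes. CIAO2A, of cytosolic iron-sulfur assembly, fell in both lines (-1.11, SE 0.06, and -0.98, SE 0.10), as did ABCB10, a mitochondrial inner membrane transporter tied to heme synthesis (-1.28, SE 0.07, and -0.98, SE 0.06). FLVCR1, named as a heme exporter, fell by 1.35 and by 0.72.

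Of the uptake list, 3 of 10 genes were called in Pa-Tu-8902 (16.3% of all genes) and 1 of 9 in the other line (12% of all genes). HFE, a partner of the transferrin receptor, rose in Pa-Tu-8902 from 2.36, 2.17 and 2.93 TPM to 5.31, 4.34 and 4.44 TPM (log2 fold change 0.75, SE 0.10). The receptor LRP1 rose (1.39, SE 0.12) and STEAP1, of the same family as STEAP3, fell by 0.79 (SE 0.05). SLC39A8, a zinc, manganese and iron importer, rose in MIA PaCa-2 from 14.74, 11.6 and 12.59 TPM to 44.47, 43.23 and 44.77 TPM (1.72, SE 0.07). In the heme lists CPOX, a heme synthesis enzyme, fell by 0.78 and the exporter ABCG2 rose by 1.20 in Pa-Tu-8902. In the mitochondrial list 0 of 21 genes passed in Pa-Tu-8902 by edgeR and 0 by DESeq2, with 11 at an unadjusted p below 0.05 (all genes 16.3% and 56.6%). In MIA PaCa-2 2 of 20 passed, beside 12% of all genes: the ferredoxin FDX1 fell by 0.59 and its reductase FDXR by 1.01. FDX1 was at the fold limit, and its call was lost in 2 of 13 alternatives. CYB561A3, an endolysosomal ferrireductase, fell by 0.62 and CDC14A, whose 3′ UTR held the IRE pattern, by 0.82 in MIA PaCa-2. EPAS1, a hypoxia factor whose mRNA is known to bear an IRE that the pattern did not match, rose by 0.59 in Pa-Tu-8902, at the fold limit, and was under that limit in 3 of 13 alternatives. BMP6, which signals to hepcidin, rose in MIA PaCa-2 from 26, 16 and 15 counts to 29, 47 and 53 (log2 fold change 1.24, SE 0.31), a call lost in 5 of 13 alternatives (adjusted p up to 0.0346). CP, the ferroxidase ceruloplasmin, was called in Pa-Tu-8902 on 1, 1 and 3 counts without and 34, 22 and 13 counts with dox. It met the count minimum only through the dox libraries, so it could only be called higher. Its call was lost in 1 of the 9 alternatives that tested it (adjusted p up to 0.0180).

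No gene of 3 lists was called with dox in either line by edgeR or by DESeq2. Among all genes tested, edgeR called 16.3% for Pa-Tu-8902 and 12% for the other line. Lists of 4, 5 and 7 genes are too small for an absence of calls to set them apart from these shares. Of the 4 IRP control genes 2 were at an unadjusted p below 0.05 in each line, and of the 5 other storage and chaperone genes 4 were. The regulators of HMOX1 and ferritin transcription, 7 genes, had 4 such genes in Pa-Tu-8902 and 6 for the other line. Of all genes tested 56.6% and 49.6% were at such a p in these lines. The last list holds KEAP1 and small MAF genes among others, and its median log2 fold change was -0.16 in Pa-Tu-8902 and 0.24 in the other line.

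Between the untreated lines 48 of 85 of these genes were called, 26 higher and 22 lower in Pa-Tu-8902, or 56.5%, beside 58.1% of all genes, so the list is not set apart by its calls and the genes below describe it. Several uptake genes were at or near the counting floor in 1 line. These met the count minimum through the other line only, which fixed the direction of a call. LCN2, lipocalin, which binds iron-carrying siderophores, was 121 ± 4.83 TPM in Pa-Tu-8902 and 0.433 ± 0.17 TPM in MIA PaCa-2. STEAP1 and STEAP2, of the same family as STEAP3, had at most 3 counts in any untreated MIA PaCa-2 library. CYBRD1, a plasma membrane ferrireductase, was 26.7 ± 4.64 TPM in MIA PaCa-2 and had at most 4 counts in Pa-Tu-8902. In heme synthesis UROD (log2 -1.89), PPOX (-1.70) and FECH (-1.24) were lower in Pa-Tu-8902. Among the mitochondrial genes SLC25A37, an iron importer, was 2.83-fold higher and FDX1 was higher (1.62), while FDXR (-1.70) and ABCB8 (-1.61) were lower. HMOX2, the constitutive heme oxygenase, was higher (1.41), and PGRMC1 (-1.24), BLVRB (-0.88) and FLVCR1 (-0.80) were lower. KEAP1 (1.28), MAFG (1.08) and MAFF (0.78) were higher, and CUL1 (-1.67) and SKP1 (-0.66), of the ubiquitin ligase that degrades IREB2, were lower. In the list of storage and chaperone genes TAX1BP1 (0.79) and HERC2 (0.74) were higher and PCBP4 (-1.30) lower. The hepcidin genes NEO1 (1.41) and BMP6 (2.44) were higher, and NUBP1 of cytosolic assembly was 2.83-fold higher. The lysosomal channel MCOLN1 (-0.63) was lower. Of the other IRE-bearing mRNAs CDC42BPA (-0.98) and CDC14A (-1.41) were lower, and EPAS1 was at 54.5 to 63.4 TPM in Pa-Tu-8902 and at most 0.25 TPM in MIA PaCa-2.

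The genes most like a member across the 12 libraries were found by Pearson's r of log2 CPM, centred on the mean of each line, over 13094 other genes tested in both lines. HMOX1 was closest to C1QTNF6 (r = 0.998) and KCNK5 (0.997), TFRC to BNC2 (0.988) and CTNND1 (0.987), and FTH1 to EMC3 (0.982) and TMEM258 (0.979). NCOA4 was less close to its nearest genes, SH3GLB1 (0.930) and RIOX2 (0.927). For SLC40A1, whose signal is in Pa-Tu-8902 only, the nearest were BECN1 (0.938) and LINC01004 (0.889), and its low counts give that order little weight. The points share library and dox treatment, and the values are a description.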

How the data were processed

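RNA-seq of 12 libraries was analysed from the tables the authors deposited. Per the labels and the study's methods, reads were demultiplexed with bcl2fastq, trimmed with Trimmomatic 0.39 and quantified with RSEM 1.3.1 and STAR 2.5.2a on hg38 (GRCh38); the tables carry GENCODE release 29 identifiers. The deposited gene and transcript tables hold expected counts (unnormalized, 5.34% of them not whole), TPM and FPKM values, per library and unfiltered. FPKM deposited by the authors was used only for an alternative of the ferritin ratio. Groups follow the sample titles. Positions and UTRs came from GENCODE release 44 on GRCh38, and all 10 members matched by Ensembl identifier.

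Expected counts were rounded, and genes that reached 10 counts in 3 or more libraries of a comparison were tested by edgeR 4.0.16 (TMM, glmQLFit and glmQLFTest, R 4.3.3), in each line, between the untreated lines, and for the difference of the responses in a fit of all 12 libraries. P-values were adjusted by Benjamini-Hochberg over all genes tested. Genes called had an adjusted p below 0.01 and a change of at least 1.5-fold, the limits of the study's methods. Standard errors are the log2 fold change over the square root of F. Ratios were compared by exact permutation tests (scipy). The fits were also run on simulated counts with the same dispersion for every gene, as a check of the code only. Deviations from the group means correlated at -0.061 to 0.099 between same-numbered libraries. These values were under the limit of 0.1 set for a block, so no block was used in the reported values. With 3 libraries per group they cannot show that the libraries were not paired.

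Alternatives were DESeq2 1.42.0, its size factors, other filters, effective lengths as offsets, a replicate block, other thresholds, 1 fit of all libraries, other units of the ratio and each library left out. All 10 members are named in each comparison; of the other lists each called gene, or the 4 with the smallest p, except for a gene called between the untreated lines that is not reported here. The members and lists were chosen with earlier results of these data known. Counts cover 26226537 to 43406137 per library. All 12 libraries were used, assigned to a line by title and by the labelled cell line (a supplementary sheet of the study names for Pa-Tu-8902 the per-library counts deposited under MIA PaCa-2, while its normalised means follow the deposited Pa-Tu-8902 columns), and no column of the tables went unmapped.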

Additional observations from a re-analysis of the deposited data

Results flagged for a closer look

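The dox response differed between the lines, by the test of the difference itself, for the following genes, given as the Pa-Tu-8902 response minus the MIA PaCa-2 response on the log2 scale. Among the members HMOX1 differed by 1.14, FTL by 0.80 and FTH1 by 0.58, the last past the adjusted p and just under the fold limit. In each of these 3 genes the fitted responses had the same sign in both lines, although FTH1 in MIA PaCa-2 and FTL in Pa-Tu-8902 passed no fold limit. Of the 86 other iron genes tested 9 were called, 6 with the higher and 3 with the lower response in Pa-Tu-8902. That is 10.5%, beside 10.4% of all 16544 genes, so the list is not set apart by its calls. Among these genes the uptake genes LRP1 (1.73) and HFE (1.08) had the higher response in Pa-Tu-8902, and SLC39A8 (-1.93) in MIA PaCa-2. HFE was 18.45, 14.87 and 20.31 TPM without and 14.57, 14.4 and 13.19 TPM with dox in MIA PaCa-2, and rose in Pa-Tu-8902. The endolysosomal reductase CYB561A3 (0.77), the transporter ABCB6 (0.76) and the reductase FDXR (0.64) also had the higher response in Pa-Tu-8902, and FLVCR1 (-0.63) and the small MAF gene MAFK (-0.60) the lower one. The call was lost in 8 of 18 alternatives for MAFK (-0.63 to -0.55), in 2 for FLVCR1 and in 1 for ABCB6. The fitted difference of ABCG2 (3.66) is no measure of size, since the dox libraries of MIA PaCa-2 held 0 to 3 counts.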

How the results depend on the processing

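The calls of HMOX1 in both lines, of FTH1 in Pa-Tu-8902, of FTL in MIA PaCa-2 and of all members called between the untreated lines, SLC40A1 aside, held under every alternative run. SLC40A1 was not tested, and the count of 6 was 5, with at least 10 counts required in every library and without each untreated Pa-Tu-8902 library, since too few libraries then reached the minimum. Over all alternatives of single genes 1449 values kept direction and side of the threshold, 45 lost the call, 16 changed sign and 10 gained the call, all of the last for the FTH1 difference between the lines. No member called lost its call among the 45. Of the other genes named for MIA PaCa-2 with dox, CYB561A3 and FLVCR1 each lost the call in 1 of 13 alternatives. Between the untreated lines it was lost in 3 of 13 for SKP1, in 2 for MCOLN1 and in 1 each for FLVCR1 and HERC2. Short of the fold limit, the adjusted p reached 0.0159 for FTL and 0.129 for SLC11A2 in Pa-Tu-8902. With the adjusted p alone and no fold limit, 5 of 10 members and 36 of 83 other iron genes were called in Pa-Tu-8902, beside 38.1% of all genes. MIA PaCa-2 had 4 of 9 and 27 of 79, beside 27.2% of all genes. The difference had 18 of 86 other genes, beside 16.9% of all genes.

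The log2 FTH1 to FTL ratio was 1.15 instead of 1.25 with dox in Pa-Tu-8902 from expected counts, and 1.15 with pseudogene counts added, and 5.39 (both) instead of 5.17 between the untreated lines, as counts are not divided by length. Leaving out each library gave 1.20 to 1.296 for dox in Pa-Tu-8902, 1.35 to 1.46 in MIA PaCa-2 and 5.13 to 5.25 between the untreated lines. As shares of expected counts, not TPM, FTH1-201 held 74.7%, 66.4%, 40.7% and 39.5% in untreated and dox Pa-Tu-8902 and untreated and dox MIA PaCa-2, FTH1-206 2.87% and 4.99% in the first 2, FTH1-212 17.2% in the first, 57.8% and 58.9% in the last 2. STEAP3-203 held 28.6% in Pa-Tu-8902 with dox and NCOA4-204 80.4% in MIA PaCa-2 with dox.

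Signs reversed only for members near 0 that passed no test. With effective lengths as offsets IREB2 was at 0.066 in Pa-Tu-8902 with dox and at 0.0070 between the untreated lines, and TFRC at 0.0076 for the difference. The TFRC difference was 0.0034 without a filter and 0.0044 with at least 10 counts in every library. ACO1 in MIA PaCa-2 was at 2.28e-05 by DESeq2. Leaving out each library gave -0.10 to 0.060 for ACO1 and -0.066 to 0.017 for STEAP3 in MIA PaCa-2, -0.0023 to 0.18 for ACO1 and -0.086 to 0.051 for TFRC in the difference, and -0.21 to 0.030 for IREB2 between the untreated lines. The cause was not tested.

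With a replicate block the count of members called was 2, 2, 2 and 6 in the 4 comparisons, the same as without it, and the blocked value of ACO1 in MIA PaCa-2 was 0.0013. Whether the shared numbers pair the libraries could not be settled. Depth limits SLC40A1 in MIA PaCa-2 and CP, and BMP6 rests on low counts.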
